A study of Mus musculus with 30 samples.

Results

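The nuclear genome encodes most subunits of the last 4 complexes of oxidative phosphorylation, and this account follows their transcripts in mouse soleus, a postural muscle rich in slow, mitochondria-dense fibres. Genes were taken by symbol: Sdha to Sdhd for complex II, the Uqcr genes, Cyc1 and Cycs for complex III with its carrier cytochrome c, Cox4 to Cox8 genes for complex IV and Atp5 genes for complex V. Of 56980 rows in the count table, 50 matched these symbols, and 45 had raw counts of 10 or more in at least 7 of 30 libraries. They comprised 4 genes of complex II, 10 of complex III and cytochrome c, 14 of complex IV and 17 of complex V. All 45 entered the tests, which covered 16932 genes. Just inside the count limit, Cox4i2 had 11 to 49 counts, and just outside it, Cox6b2 reached 10 counts in 4 libraries. Cox6c2, Cox7b2, Cox8c and a further row named Atp5o were also below the limit.

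RNA was sequenced from samples labelled as soleus muscle of 30 C57BL/6J mice aged 3 to 4 months. Mice spent 4 weeks either under hindlimb unloading (HU), in which the hindlimbs bear no weight, or ambulatory (AMB). The mKO mice lacked AMPKalpha1 and AMPKalpha2, the catalytic subunits of the energy-sensing kinase AMPK, in skeletal muscle, and the controls (Ctrl) carried the double floxed alleles without Cre, so presence of Cre and loss of AMPK cannot be told apart. Which promoter drives Cre is not stated in the labels. The groups were 8 HU mKO mice (3 male, 5 female), 7 HU Ctrl (4 male, 3 female), 7 AMB mKO (5 male, 2 female) and 8 AMB Ctrl (3 male, 5 female), with 1 library per mouse.

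Electrons from succinate enter the respiratory chain at complex II, pass through complex III and cytochrome c and reach oxygen at complex IV. Complexes III and IV pump protons across the inner membrane, and complex V, the ATP synthase, lets them flow back to make ATP. Complex II is built wholly from nuclear genes, whereas complexes III, IV and V also need subunits made from the mitochondrial genome. Several complex IV subunits exist as isoforms, with Cox6a2, Cox7a1 and Cox8b typical of heart and skeletal muscle and Cox6a1, Cox7a2 and Cox8a found widely. In complex V, Atp5g1, Atp5g2 and Atp5g3 encode the same mature c subunit of the proton-driven ring with different import sequences.

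Total counts ran from 12.1 M to 20.9 M per library, and the 45 transcripts took 0.622% to 1.63% of them. Levels below are in CPM, TMM-scaled counts relative to library size. In AMB Ctrl mice the median level ran from 1.47 CPM for Cox4i2 to 2188 CPM for Atp5b. How much of the error came from counting and how much from the spread between mice was not tested. Prkaa2, which encodes AMPKalpha2, had 56.0 to 112 CPM in HU mKO mice, against 130 to 346 CPM in HU Ctrl mice, and 15.0 to 85.1 CPM in AMB mKO mice, against 170 to 258 CPM in AMB Ctrl mice. It was lower in mKO mice with and without unloading (log2 -1.64 ± 0.24 and -1.89 ± 0.26, edgeR adjusted p = 0.00192 and 0.000367), and neither pair of groups overlapped. Prkaa2 was lower as well without AMB mKO replicate 2, which held 15.0 CPM (log2 -1.65 and -1.68, edgeR adjusted p = 4.06e-06 and 2.85e-05). Prkaa1, which encodes AMPKalpha1, had 8.21 to 36.2 CPM in AMB mKO mice, against 16.5 to 24.9 CPM in AMB Ctrl mice, and its edgeR adjusted p was 0.891. The highest AMB mKO value was replicate 2, and the other 6 had 8.21 to 17.9 CPM. In HU mKO mice it had 13.4 to 24.3 CPM, against 22.4 to 30.4 CPM in HU Ctrl mice, and did not pass (log2 -0.60 ± 0.18, edgeR adjusted p = 1).

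AMB mKO replicate 2, the mouse labelled 32c, stood apart from the other AMB mKO libraries. Its 6 general muscle fibre genes summed to 9630 CPM, against 181822 to 280499 CPM in the other 6 AMB mKO mice, and its 8 slow fibre genes summed to 514 CPM, against 19561 to 39902 CPM. The 10 adipocyte genes summed to 14480 CPM there, against 1983 to 5030 CPM. The 45 subunit transcripts summed to 3818 CPM in it, against 10091 to 16124 CPM in the other 6. These levels go against its label as soleus muscle, whether it holds soleus was not tested, and every AMB mKO value with all libraries includes it. Counts of calls and medians are therefore given with and without it. HU mKO replicates 2 and 3 were also high in adipocyte genes, at 5255 and 5969 CPM, and held 7505 and 5242 CPM of subunit transcripts, against 7452 to 10763 CPM in the other 6 HU mKO mice. With AMB mKO replicate 2 they are the 3 adipocyte-rich libraries named below, which do not include AMB mKO replicate 3, at 5030 CPM. These sums lean on Lpl and Plin4, with median counts of 17786.5 and 17025, against 259.5 for Adipoq. Lpl and Fabp4 are shared with muscle, so the sums are a rough measure of adipocyte content. In bulk muscle, fewer fibres and less transcript per fibre cannot be told apart.

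With unloading, subunit transcripts of all 4 complexes were lower in control muscle. HU Ctrl mice had a summed level of 7965 to 12351 CPM with a median of 9906 CPM, against 11282 to 19318 CPM with a median of 14328 CPM in AMB Ctrl mice. The summed ranges overlapped, since HU Ctrl replicates 1 and 4 lay above the lowest AMB Ctrl mouse. Of the 45 transcripts 16 fell, none rose, and 44 had lower values in HU Ctrl mice. Over all genes tested in that comparison 11.1% were called and 5.74% were called lower, and the median log2 change was 0.03, against -0.58 over the 45 transcripts. A gene was called at a Benjamini-Hochberg adjusted p below 0.05 in edgeR's quasi-likelihood test, with all 4 groups and sex in the model. The share that fell was 3 of 4 in complex II, 6 of 10 in complex III with cytochrome c, 3 of 14 in complex IV and 4 of 17 in complex V. The medians by complex were -0.67, -0.72, -0.56 and -0.51 in that order.

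In mKO muscle the summed level was 5242 to 10763 CPM with a median of 10370 CPM in HU mKO mice. AMB mKO mice other than replicate 2 had 10091 to 16124 CPM with a median of 14401 CPM, so 5 HU mKO mice lay above the lowest of them. With all libraries 2 of 45 transcripts fell and none rose, against 10.1% of all genes called and 4.75% called lower. They were Cycs, for cytochrome c, and Atp5g3, for the c subunit of ATP synthase. The median log2 change was -0.33, against -0.04 over all genes. Without AMB mKO replicate 2, 18 transcripts fell in mKO mice and 28 in control mice, with none rising, and these included the 2 and the 16 called with all libraries. In that fit 13.5% of genes were called in mKO mice, 6.82% called lower, and 15.7% in controls, 7.86% called lower, and the median changes of the 45 transcripts were -0.48 and -0.55. The control libraries were the same in both fits, which estimate the spread over all groups together. Without a low-count filter, and with sex left out, 9 fell in controls in each case, and Sdhb, Cox4i1, Cox7a1, Atp5d and Atp5g1 lost their calls in both settings (edgeR adjusted p between 0.0538 and 0.0915). The share of all genes called in these settings is not given here. Both mKO calls were lost when HU mKO and AMB mKO mice were fitted alone (edgeR adjusted p = 0.131 for Cycs and 0.117 for Atp5g3).

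**Figure D1:**
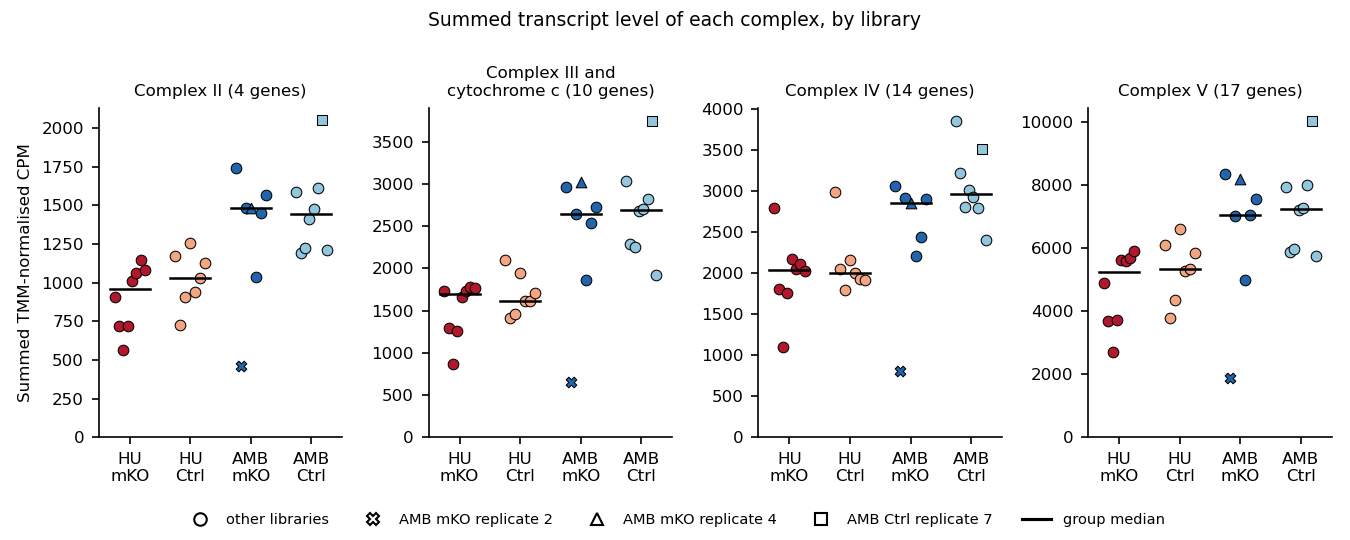
Each point is 1 library, and the vertical axis gives the TMM-normalised CPM summed over the genes of a complex; bars mark group medians. For all members together, AMB mKO replicate 2 lay at 3818 CPM, and the medians were 10370 in HU mKO, 9906 in HU Ctrl, 14035 in AMB mKO and 14328 in AMB Ctrl mice.

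Within complex II the catalytic flavoprotein Sdha did not follow the other 3 subunits past the threshold. Sdhc, a membrane anchor, had 119, 178 and 232 CPM (lowest, median, highest) in HU Ctrl mice, against 226, 285 and 412 CPM in AMB Ctrl mice. HU Ctrl replicate 4 alone reached into the AMB Ctrl range, and Sdhc fell 1.70-fold (log2 -0.76 ± 0.23 SE, edgeR adjusted p = 0.0297). Sdhb, the iron-sulfur subunit, fell 1.69-fold (-0.76 ± 0.25, edgeR adjusted p = 0.0441), and Sdhd, the other anchor, fell 1.49-fold (-0.58 ± 0.18, edgeR adjusted p = 0.0381). Sdha had 275, 475 and 655 CPM in HU Ctrl mice, against 425, 604 and 802 CPM in AMB Ctrl mice (-0.34 ± 0.21, edgeR adjusted p = 0.326). In mKO mice none of the 4 passed with all libraries, at log2 changes between -0.31 and -0.63. Without AMB mKO replicate 2, Sdhb, Sdhc and Sdhd fell in mKO mice as well (log2 -0.82, -0.83 and -0.65), and Sdha stood at -0.46 (edgeR adjusted p = 0.118).

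Complex III with cytochrome c held 6 of the 16 calls in controls. Uqcrq, a small accessory subunit, had the smallest p of all 45 transcripts, with 121, 132 and 205 CPM in HU Ctrl mice, against 187, 252 and 317 CPM in AMB Ctrl mice. HU Ctrl replicate 1 was the only HU Ctrl library inside the AMB Ctrl range. Uqcrq fell 1.80-fold (log2 -0.85 ± 0.19, edgeR adjusted p = 0.00471). Cycs, the soluble carrier between complexes III and IV, had 63.9, 72.6 and 126 CPM in HU Ctrl mice, against 105, 143 and 201 CPM in AMB Ctrl mice. Cycs fell 1.87-fold (-0.90 ± 0.21, edgeR adjusted p = 0.00591), again with HU Ctrl replicate 1 inside the AMB Ctrl range. The electron-carrying subunits Cyc1, for cytochrome c1, and Uqcrfs1, the Rieske iron-sulfur protein, fell 1.86-fold and 1.85-fold (edgeR adjusted p = 0.0225 and 0.0289). Uqcr11 and Uqcr10, accessory subunits, fell 1.66-fold and 1.59-fold (edgeR adjusted p = 0.0102 and 0.0267).

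Uqcrb, another accessory subunit, had 68.7, 83.8 and 129 CPM in HU Ctrl mice, against 79.3, 93.8 and 125 CPM in AMB Ctrl mice. The ranges overlapped over most of their length (log2 -0.18 ± 0.21, edgeR adjusted p = 0.635). In mKO mice Cycs had 39.7, 70.2 and 91.2 CPM under unloading, against 37.1, 121 and 166 CPM in AMB mKO mice, and the lowest of these AMB values was replicate 2. Cycs fell 1.66-fold there (-0.73 ± 0.22, edgeR adjusted p = 0.0302), and 1.89-fold without that library (edgeR adjusted p = 0.00071). Without it 8 of the 10 transcripts fell in mKO mice, all but Uqcrh and Uqcrb. Uqcrb had log2 0.13 ± 0.22 with all libraries and -0.061 ± 0.17 without replicate 2, and passed in neither.

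**Figure D2:**
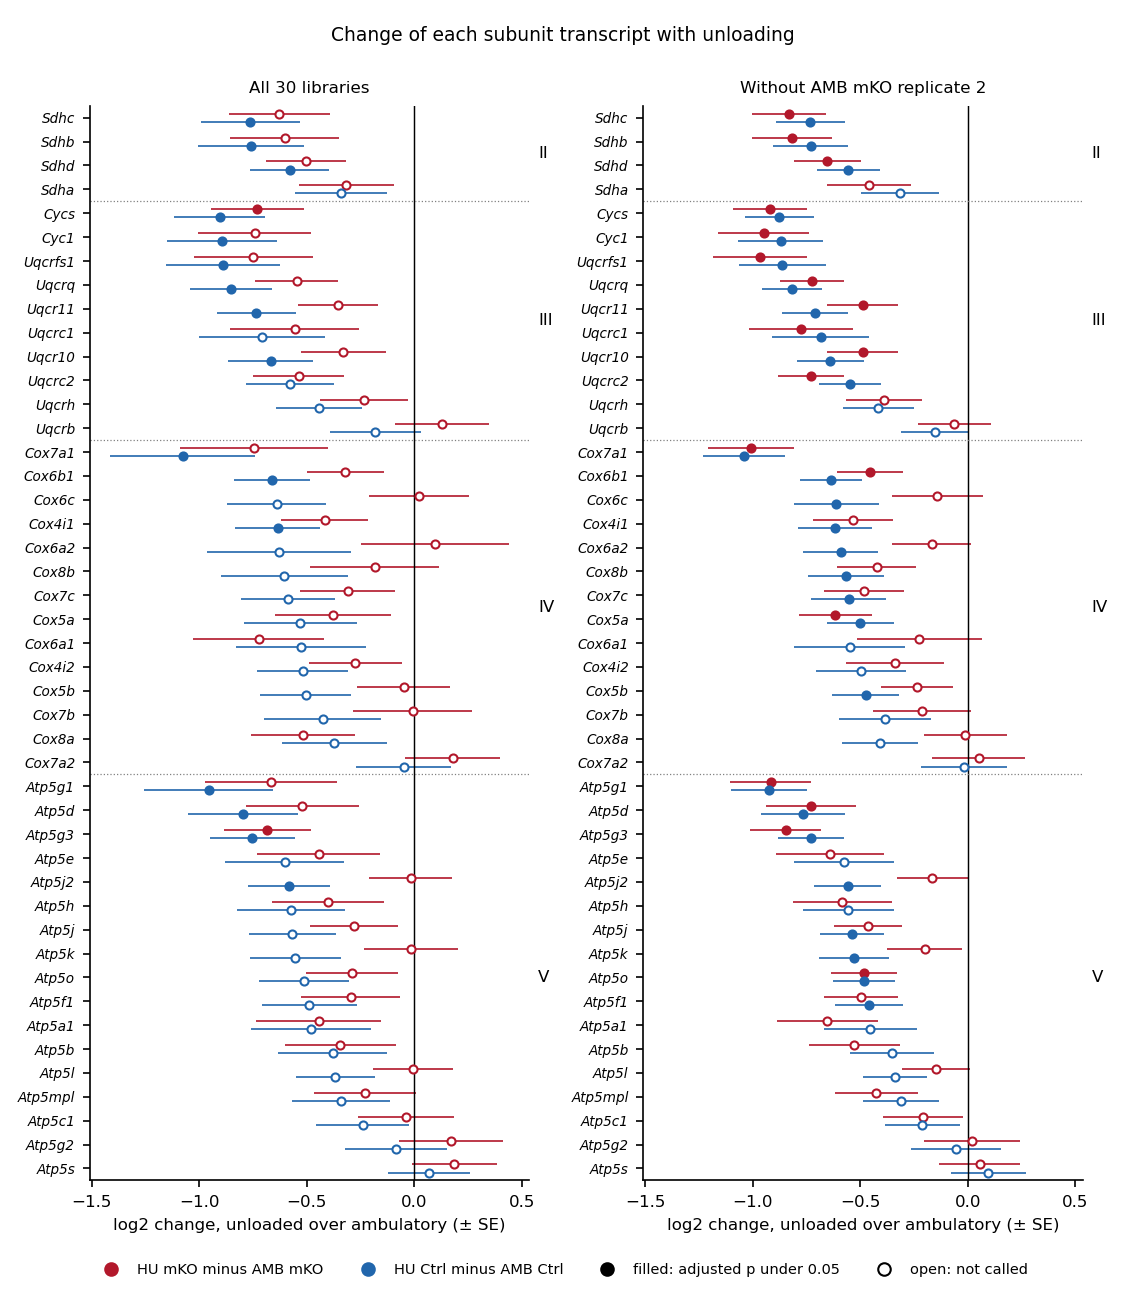
The horizontal axis gives the log2 change of each of the 45 transcripts, unloaded over ambulatory, with its standard error, in mKO mice (red) and controls (blue), for all 30 libraries (left) and without AMB mKO replicate 2 (right); filled points were called. Filled points number 2 in mKO and 16 in controls on the left, and 18 and 28 on the right.

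In complex IV the muscle isoform Cox7a1 and its ubiquitous counterpart Cox7a2 parted. Cox7a1 had 66.1, 81.9 and 144 CPM in HU Ctrl mice, against 113, 176 and 236 CPM in AMB Ctrl mice, and fell 2.11-fold (log2 -1.08 ± 0.34, edgeR adjusted p = 0.0371). HU Ctrl replicate 1 was again the only HU Ctrl library inside the AMB Ctrl range. Cox7a2 had 80.3, 99.1 and 154 CPM in HU Ctrl mice, against 64.1, 101 and 149 CPM in AMB Ctrl mice (-0.05 ± 0.22, edgeR adjusted p = 0.917). In mKO mice Cox7a1 had 30.7, 68.3 and 118 CPM under unloading, against 6.79, 164 and 177 CPM in AMB mKO mice, where 6.79 CPM was replicate 2. Its change in mKO mice was -0.75 ± 0.34 (edgeR adjusted p = 0.157) with all libraries, and without replicate 2 it fell (-1.01 ± 0.20, edgeR adjusted p = 0.00125). Cox7a2 did not pass in mKO mice (0.18 ± 0.22, edgeR adjusted p = 0.64).

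The ratio of Cox7a1 to Cox7a2 within each library, which needs no comparison of depth, separated unloaded from ambulatory controls without overlap. Its log2 value was -0.53, -0.28 and -0.10 (lowest, median, highest) in HU Ctrl mice, against 0.30, 0.65 and 1.86 in AMB Ctrl mice. In HU mKO mice it was -1.18, -0.52 and -0.07, against 0.21, 0.52 and 2.15 in the 6 AMB mKO mice other than replicate 2, which stood at -2.70. The ratios are a description and were not tested. How often ratios of other gene pairs separate the groups was not computed, so the lack of overlap has no share to stand beside. The other muscle isoforms did not separate in this way. The log2 ratio of Cox6a2 to Cox6a1 had medians of 5.05 in HU mKO, 4.85 in HU Ctrl, 4.82 in AMB mKO and 5.02 in AMB Ctrl mice. That of Cox8b to Cox8a had medians of 2.63, 3.08, 2.88 and 3.24 in the same order, with overlapping ranges.

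As single genes, Cox6a2 had a log2 unloading change of 0.10 ± 0.34 in mKO mice (edgeR adjusted p = 0.883) and -0.63 ± 0.34 in controls (edgeR adjusted p = 0.237). In mKO mice and controls in that order, Cox6a1 had -0.72 ± 0.30 and -0.53 ± 0.30, Cox8b -0.18 ± 0.30 and -0.60 ± 0.30, and Cox8a -0.52 ± 0.24 and -0.37 ± 0.24, with none of them called with all libraries. The values of Cox6a1 and Cox8a in mKO mice turned on AMB mKO replicate 2, which held 52.5 CPM of Cox6a1 and 112 CPM of Cox8a, the highest of its group, and only 16.8 CPM of Cox6a2 and 20.2 CPM of Cox8b, the lowest. Without it the changes in mKO mice were -0.23 for Cox6a1 and -0.011 for Cox8a. In that fit Cox6a2 (-0.59, edgeR adjusted p = 0.0188) and Cox8b (-0.57, edgeR adjusted p = 0.0263) fell in controls, and in mKO mice they stood at -0.17 and -0.42 (edgeR adjusted p = 0.595 and 0.126).

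**Figure D3:**
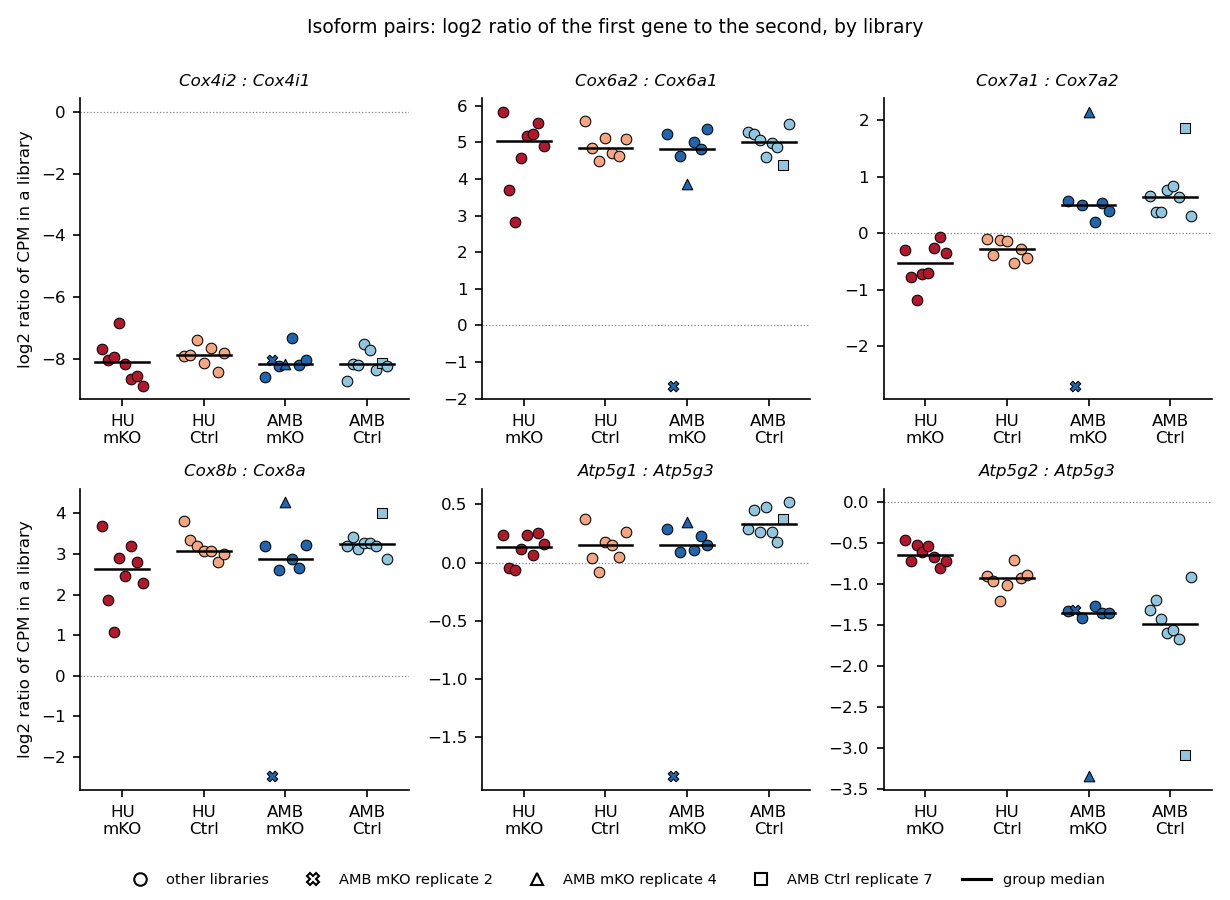
Each point is 1 library, and the vertical axis gives the log2 ratio of CPM of the first gene to the second; bars mark group medians and a dotted line marks equal CPM. The Cox7a1 ratio lies below 0 in all HU libraries and above 0 in all AMB libraries but AMB mKO replicate 2, at -2.70.

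Cox6b1, which joins the monomers of complex IV, fell 1.58-fold in controls (log2 -0.66 ± 0.18, edgeR adjusted p = 0.015), with 160, 186 and 298 CPM in HU Ctrl mice, against 229, 298 and 376 CPM in AMB Ctrl mice. Cox4i1, the main isoform of the largest nuclear subunit, fell 1.55-fold (-0.64 ± 0.20, edgeR adjusted p = 0.0349), with 238, 325 and 398 CPM in HU Ctrl mice, against 342, 484 and 785 CPM in AMB Ctrl mice. Its rarer isoform Cox4i2, known from lung and from low oxygen, ran from 0.802 to 2.82 CPM over all libraries and did not pass (-0.52 ± 0.21, edgeR adjusted p = 0.111). In CPM per kilobase of exon sequence the median of Cox4i2 was 1.19 in HU mKO, 1.85 in HU Ctrl, 1.92 in AMB mKO and 1.86 in AMB Ctrl mice, against 220, 210, 295 and 313 for Cox4i1. In mKO mice no complex IV transcript passed with all libraries, and Cox7b, a small subunit, had the largest p (-0.0070 ± 0.28, edgeR adjusted p = 0.99, and -0.21 without AMB mKO replicate 2). With AMB mKO replicate 2 left out the calls were Cox5a, Cox6b1 and Cox7a1 in mKO mice, and 9 of 14 in controls.

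The same kind of split appeared among the 3 genes of the c subunit of ATP synthase. Atp5g1 had 168, 215 and 295 CPM in HU Ctrl mice, against 306, 416 and 612 CPM in AMB Ctrl mice, and fell 1.94-fold (log2 -0.95 ± 0.30, edgeR adjusted p = 0.0372). Its 2 groups did not overlap, the only such case of the 45 transcripts in controls, where 2.12% of all genes tested lay wholly below. Atp5g3 had 164, 199 and 234 CPM in HU Ctrl mice, against 214, 334 and 471 CPM in AMB Ctrl mice, and fell 1.69-fold (-0.75 ± 0.20, edgeR adjusted p = 0.0133). Atp5g2 had 79.5, 108 and 122 CPM in HU Ctrl mice, against 55.6, 114 and 153 CPM in AMB Ctrl mice (-0.09 ± 0.24, edgeR adjusted p = 0.862).

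In mKO mice Atp5g3 had 96.8, 183 and 211 CPM under unloading, against 108, 332 and 362 CPM in AMB mKO mice. It fell 1.61-fold (log2 -0.68 ± 0.20, edgeR adjusted p = 0.0303), and 1.80-fold without replicate 2, the lowest AMB mKO library. Atp5g1 had -0.66 ± 0.31 in mKO mice (edgeR adjusted p = 0.16), and without replicate 2 it fell (-0.92 ± 0.19, edgeR adjusted p = 0.00167). Atp5g2 had 0.17 ± 0.24 in mKO mice with all libraries and 0.021 ± 0.22 without replicate 2. The log2 ratio of Atp5g2 to Atp5g3 was -0.80, -0.64 and -0.45 in HU mKO mice, against -3.35, -1.35 and -1.26 in AMB mKO mice, with no overlap. In controls it was -1.20, -0.92 and -0.71 in HU Ctrl mice, against -3.08, -1.49 and -0.91 in AMB Ctrl mice, where the ranges overlapped. That of Atp5g1 to Atp5g3 overlapped in both genotypes. No share over other gene pairs was computed for these ratios either.

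Promoter sequence is shown for the pair that parted, Cox7a1 and Cox7a2, and for Atp5g3, called in both genotypes, a choice made with their values known. The 250 bases before the RefSeq transcription start (build GRCm38.p6) are shown for Cox7a1 (chr7:30183921-30184170, plus strand), Cox7a2 (chr9:79759854-79760103, minus strand) and Atp5g3 (chr2:73911327-73911576, minus strand), each read 5′ to 3′ along its gene. Capitals mark a match to the ERR site AAGGTCA, which here reads on the opposite strand and starts 52 bases before the start of Atp5g3.
Cox7a1: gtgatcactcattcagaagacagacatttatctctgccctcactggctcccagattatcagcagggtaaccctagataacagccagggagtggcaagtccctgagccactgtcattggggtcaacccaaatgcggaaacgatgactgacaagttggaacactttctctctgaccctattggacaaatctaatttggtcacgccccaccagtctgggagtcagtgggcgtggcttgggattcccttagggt
Cox7a2: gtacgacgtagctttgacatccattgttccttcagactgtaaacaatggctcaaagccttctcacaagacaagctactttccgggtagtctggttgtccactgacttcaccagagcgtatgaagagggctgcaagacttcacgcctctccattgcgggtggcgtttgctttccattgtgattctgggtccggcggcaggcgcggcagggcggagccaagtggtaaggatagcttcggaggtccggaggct
Atp5g3: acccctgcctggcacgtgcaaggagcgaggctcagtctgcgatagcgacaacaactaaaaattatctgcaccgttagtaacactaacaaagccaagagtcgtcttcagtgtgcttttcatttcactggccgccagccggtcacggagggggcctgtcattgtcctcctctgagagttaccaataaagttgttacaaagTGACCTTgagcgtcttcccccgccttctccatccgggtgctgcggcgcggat
The Cox7a1 and Cox7a2 windows held none of the 5 motifs searched on both strands, the NRF1 site, ERR (AAGGTCA), ETS (CCGGAAGT), YY1 (AANATGGCG) and MEF2. Of the 45 genes 32 had a promoter in the table. NRF1 matched in 7 of them (21.9%, against 4.23% of 27025 genes), ETS in 3 (9.38%, against 3.23%), ERR in 2 (6.25%, against 4.7%), YY1 in 1 (3.12%, against 1.29%) and MEF2 in 0 (against 0.592%). The NRF1 matches lay in Sdha, Sdhd, Cox6a1, Atp5c1, Atp5g2, Atp5h and Atp5k. Of these, Sdhd alone was called in unloaded controls with all libraries, against 16 of the 45 transcripts and 5.74% of all genes called lower. Over 15 alternative settings Sdhd was called in 14, Atp5k in 7, Atp5h in 3, Cox6a1 in 1 and the others in none. Median GC content of these windows was 54.4%, against 52.4% over all genes, and a match is a description of the letters.

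Among the other ATP synthase genes, Atp5d, for the delta subunit of the central stalk, fell 1.74-fold in controls (log2 -0.80 ± 0.25, edgeR adjusted p = 0.0405). Atp5j2, for subunit f of the membrane part, fell 1.50-fold (-0.58 ± 0.19, edgeR adjusted p = 0.0439). The catalytic beta subunit Atp5b had 959, 1737 and 2307 CPM in HU Ctrl mice, against 1533, 2188 and 2791 CPM in AMB Ctrl mice (-0.38 ± 0.25, edgeR adjusted p = 0.353). The alpha subunit Atp5a1 had -0.48 ± 0.28 (edgeR adjusted p = 0.282). Atp5s, a low transcript whose product is not part of the core enzyme, was the only transcript with a higher value in HU Ctrl mice (0.07 ± 0.19, edgeR adjusted p = 0.86). In mKO mice Atp5d had -0.52 ± 0.26 (edgeR adjusted p = 0.199) and fell without replicate 2 (-0.73, edgeR adjusted p = 0.0204). The membrane subunit Atp5l had the largest p of complex V there (-0.0049 ± 0.19, edgeR adjusted p = 0.989, and -0.15 without replicate 2).

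In mKO mice no transcript separated with all libraries, against 0.372% of genes wholly below, and AMB mKO replicate 2 was the lowest of its group for all but Cox6a1, Cox7a2, Cox8a and Atp5g2. Without it, Cycs, Uqcrq, Uqcrfs1, Cox5a, Atp5g1 and Atp5g3 lay below every AMB mKO library in all 8 HU mKO mice, where 2.07% of genes did. Members share a fibre and a library, so these counts are not independent.

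Loss of AMPK was not accompanied by a call among the 45 transcripts. In ambulatory mice 43 had lower values in mKO than in control muscle, with a median log2 difference of -0.33, against 0.02 over all genes. None was called by edgeR, DESeq2 or limma with library weights, against 0.0177% of genes called. An unadjusted p below 0.05 in edgeR was found for 7, against 1291 of 16932 genes. Without AMB mKO replicate 2 the median was -0.14, none was called against 0.0176% of genes, and 2 had an unadjusted p below 0.05. The count over all genes below that p is not given for this fit. The smallest p belonged to Atp5j2, with 38.6, 115 and 123 CPM in AMB mKO mice, against 102, 126 and 203 CPM in AMB Ctrl mice (log2 -0.58 ± 0.19, edgeR adjusted p = 0.534). Cox6c led complex IV (-0.59 ± 0.24, edgeR adjusted p = 0.599), Uqcr10 complex III (-0.45 ± 0.20, edgeR adjusted p = 0.635) and Sdhd complex II (-0.24 ± 0.19, edgeR adjusted p = 0.849). Without replicate 2 their values were -0.43, -0.41, -0.28 and -0.080 in that order.

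In unloaded mice 36 of 45 had lower values in mKO muscle, with a median of -0.11 and none called by edgeR, DESeq2 or limma with library weights, against 0.0177% of genes. None had an unadjusted p below 0.05, against 301 of 16932 genes. Without AMB mKO replicate 2 none was called either, against 0.0176% of genes, and the median was -0.13. Cox8a had the smallest p (log2 0.30 ± 0.25, edgeR adjusted p = 1), with 20.2, 28.3 and 47.3 CPM in HU mKO mice, against 21.3, 24.0 and 25.6 CPM in HU Ctrl mice. Cycs (-0.23 ± 0.21), Atp5g3 (-0.20 ± 0.20) and Sdhd (-0.16 ± 0.18) had the smallest p of their complexes.

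The test of whether unloading acted differently in mKO and control muscle called none of the 45 transcripts and 0% of all genes with edgeR, and none with DESeq2 or limma with library weights. With all libraries 43 had a positive interaction, that is a less negative unloading change in mKO mice, with a median of 0.22 and 1 unadjusted p below 0.05, that of Atp5j2 (0.57 ± 0.27, edgeR adjusted p = 0.999). Over all genes 410 of 16932 had an unadjusted p below 0.05. Cox6c had 0.66 ± 0.33, Uqcr11 0.38 ± 0.27 and Sdhb 0.16 ± 0.36, each with edgeR adjusted p = 0.999. Without AMB mKO replicate 2 the median was 0.03, 26 were positive and 19 negative, and 21 of the 45 had the other sign than with all libraries. Atp5j2, Cox6c, Uqcr11 and Sdhb then had 0.39, 0.47, 0.22 and -0.086. The larger number of calls in controls than in mKO mice is not itself a test of that difference.

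**Figure D4:**
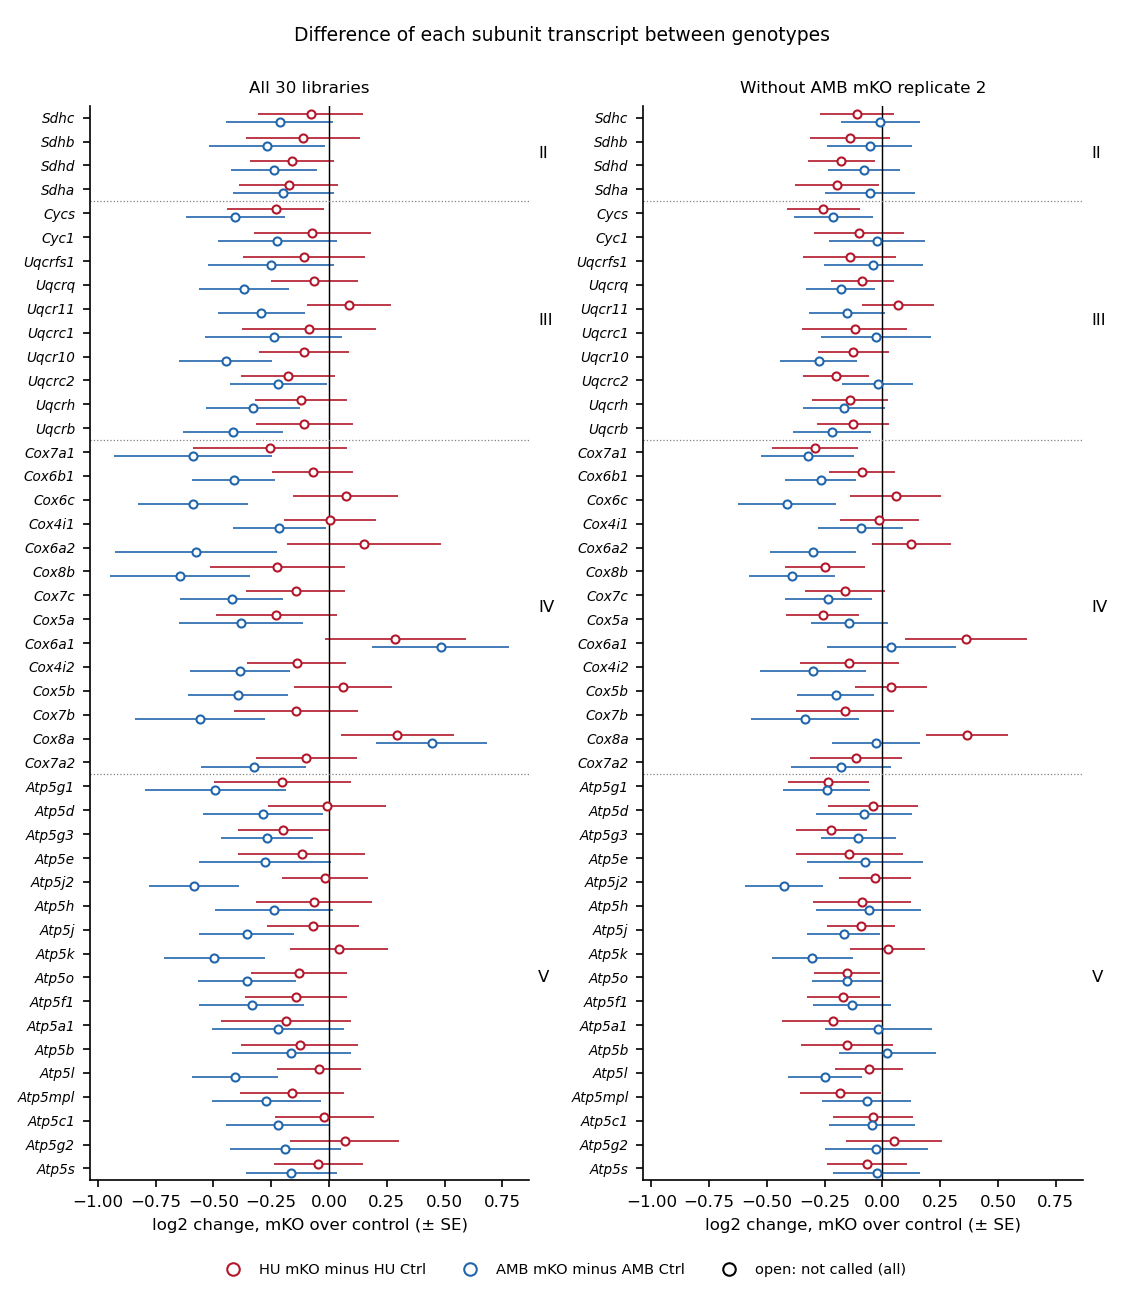
The horizontal axis gives the log2 difference of each of the 45 transcripts, mKO over control, with its standard error, in unloaded (red) and ambulatory (blue) mice, for all 30 libraries (left) and without AMB mKO replicate 2 (right). None was called; the ambulatory median was -0.33 on the left and -0.14 on the right.

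Male mice had higher values than female mice for 43 of the 45 transcripts, with a median log2 difference of 0.27, against -0.0021 over all genes. None was called by edgeR, where 0.213% of all genes were, and 13 had an unadjusted p below 0.05, against 2139 of 16932 genes. Cox4i2 came nearest (0.66 ± 0.16, edgeR adjusted p = 0.0674), and DESeq2 called it. With AMB mKO replicate 2 left out none was called, against 0.188% of genes, the median was 0.14 and the adjusted p of Cox4i2 in edgeR was 0.202. The sexes were unevenly spread over the groups, and sex was a term of the model. Other lists differed between the sexes in the same fit, with no gene of them called, and their part in the result was not tested. All 11 fast fibre genes had higher values in males (median log2 0.52, and 0.37 without AMB mKO replicate 2), whereas 2 of 8 slow fibre genes did with all libraries (-0.02 and -0.21). Without replicate 2 every slow fibre gene had a lower value in males. All 10 adipocyte genes had lower values in males (-1.43 and -0.39), as did all 5 Schwann cell genes (-1.70 and -1.07), of which 5 had an unadjusted p below 0.05 with all libraries and 1 without replicate 2. The 37 genes taken as complex I subunits by their Nduf symbols, Ndufa4 and Ndufa4l2 among them, all had higher values in males (0.27 and 0.16).

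Related genes moved with unloading to differing degrees. The 6 subunits of complexes III, IV and V made from the mitochondrial genome had a median log2 change of 0.33 in mKO mice and 0.0097 in controls, with none called by edgeR. At an unadjusted p below 0.05 stood 1 in mKO mice and 0 in controls. Over all genes 4615 of 16932 did so in mKO mice and 4467 in controls. Leaving out AMB mKO replicate 2 gave medians of 0.12 and 0.05, with none called and 0 and 1 at an unadjusted p below 0.05. The smallest p in both genotypes was that of mt-Atp8, an ATP synthase subunit (0.99 ± 0.40 in mKO mice and 0.75 ± 0.38 in controls, edgeR adjusted p = 0.107 and 0.212), followed by mt-Co3 in mKO mice (0.66 ± 0.44) and mt-Co2 in controls (-0.30 ± 0.28), both subunits of complex IV. These genes were counted at far lower levels than their partners. Median counts were 153 for mt-Atp8, 335.5 for mt-Co3, 422 for mt-Co2 and 473.5 for mt-Atp6. They were 286405.5 for mt-Co1 and 95250 for mt-Cytb. Whether reads of the low genes were lost in counting was not tested, so their changes and the medians may not reflect the transcripts. Among 32 tested assembly factors 5 fell in mKO mice and 8 in controls, and 14 and 11 without replicate 2, and none rose. Cox19, a copper-handling factor of complex IV assembly, fell in mKO mice (log2 -0.76 ± 0.17, edgeR adjusted p = 0.0072) and in controls (-0.90 ± 0.17, edgeR adjusted p = 0.00124). Bcs1l, which inserts the Rieske protein into complex III, fell in mKO mice (-0.76 ± 0.19, edgeR adjusted p = 0.0131) and in controls (-0.92 ± 0.19, edgeR adjusted p = 0.00225). Coa3, a complex IV factor, also fell in both (-0.60 ± 0.16 in mKO mice and -0.76 ± 0.15 in controls, edgeR adjusted p = 0.0174 and 0.00196), and without replicate 2 all 3 of these factors fell in both genotypes. Of the 37 tested genes taken as complex I subunits by symbol, none fell in mKO mice with all libraries, with 7 at an unadjusted p below 0.05, and 7 fell in controls. With AMB mKO replicate 2 left out, 10 fell in mKO mice and 14 in controls. Of 13 regulators of mitochondrial genes 4 fell in controls, among them the receptor Ppara (-1.28 ± 0.30, edgeR adjusted p = 0.00634) and the coactivator Ppargc1a (-1.62 ± 0.46, edgeR adjusted p = 0.0232). In mKO mice 1 regulator, Ppard, rose with all libraries (0.48 ± 0.16, edgeR adjusted p = 0.0479), a call lost without replicate 2 (0.42 ± 0.16, edgeR adjusted p = 0.0753). Without it 5 regulators fell in each genotype, and in mKO mice these were Ppara (-1.02), Esrra (-0.98), Esrrg (-1.08), Ppargc1a (-1.54) and Ppargc1b (-0.92), with edgeR adjusted p between 0.00111 and 0.0256.

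Some fibre-type and other cell markers moved with unloading as well, and their part in these results was not tested. The 8 slow fibre genes summed to 11822 to 37793 CPM in HU mKO, 11703 to 30834 in HU Ctrl, 514 to 39902 in AMB mKO and 17923 to 44193 in AMB Ctrl mice, with none called in either unloading comparison and 1 in mKO mice and 3 in controls at an unadjusted p below 0.05. In the fit without AMB mKO replicate 2, 4 slow fibre genes fell in mKO mice and 3 in controls, Myl2, Myl3 and Tnni1 in both and Tnnc1 in mKO mice, and their medians were -0.83 and -0.63. The general muscle fibre genes Mb and Acta1 fell in controls in that fit. The 11 fast fibre genes summed to 21392 to 103608, 18099 to 77920, 3496 to 47676 and 18605 to 49597 CPM in the same order. In both genotypes 3 of them rose with unloading and 1, Myh2, fell; without replicate 2, 2 rose in mKO mice and 3 in controls, and Myh2 fell in both. Of 6 endothelial genes 1 fell in mKO mice and 2 in controls, with Kdr at -0.85 and -1.07 (-0.89 and -1.05 without replicate 2, with the same numbers called), and their sums were 269 to 433, 266 to 384, 310 to 415 and 311 to 552 CPM. Of 5 tenocyte genes Scx fell in both genotypes in both fits, and of 5 fibro-adipogenic progenitor genes Ly6a fell in mKO mice with all libraries, a call lost without replicate 2 (-0.50, edgeR adjusted p = 0.10). No adipocyte, macrophage or Schwann gene was called by edgeR, with 1, 3 and 0 genes in mKO mice and none in controls at an unadjusted p below 0.05. Without replicate 2 none was called either, with 1, 0 and 3 in mKO mice and 1, 0 and 0 in controls. The 5 Schwann genes summed to 42.9 to 1467 CPM in HU mKO, 50.5 to 624.9 in HU Ctrl, 46.6 to 1316 in AMB mKO and 51.8 to 526.4 in AMB Ctrl mice, with 1316 CPM in AMB mKO replicate 2 and 731 and 1467 CPM in HU mKO replicates 2 and 3. Their median unloading change in mKO mice was 0.45 with all libraries and 2.41 without replicate 2. The 10 adipocyte genes summed to 1991 to 5969, 1872 to 2694, 1983 to 14480 and 1952 to 3479 CPM. In ambulatory mice all 10 had higher values in mKO than in control muscle, with a median log2 difference of 2.17 with all libraries and none called. Without replicate 2 this median was 0.51, with 9 of 10 higher and none called. The median unloading change of the adipocyte genes in mKO mice was -1.41 with all libraries and 0.40 without it. Of 4 brown adipocyte genes Ucp1 was at 0 in every library, and Ppargc1a, also a regulator in muscle, was the called gene in controls, and in mKO mice too without replicate 2. No slow, fast or general muscle fibre gene was at 0 in any library.

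Unloading changes of the summed transcripts were also read within 3 sets of libraries defined by the final letter of their titles (a, b or c), which the labels do not explain. In controls the log2 difference of the summed level was -0.43, -0.53 and -0.53 in letters a, b and c. In mKO mice it was -0.50, -0.47 and 0.02, and -0.92 in letter c without AMB mKO replicate 2, which leaves 1 ambulatory library there. The mKO difference in ambulatory mice was -0.22, -0.0023 and -0.90 in the same letters, and 0.044 in letter c without that replicate. The balance of complexes differed between letters. The ratio of summed complex IV to complex V CPM was 0.3275 to 0.469 in a, 0.329 to 0.417 in b and 0.407 to 0.571 in c. Its medians were 0.387, 0.363 and 0.486 in that order, whereas the group medians ran from 0.380 in HU Ctrl to 0.417 in AMB Ctrl mice. The cause was not tested.

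AMB mKO replicate 4 and AMB Ctrl replicate 7 differed from the remaining ambulatory libraries in the balance of the subunits. Deviations were taken from the median of the other 12 ambulatory libraries, leaving replicate 2 of AMB mKO aside. Their spread over the 45 transcripts (SD, log2) was 0.755 and 0.506 in these libraries, against 0.131 to 0.272 in the other 12. The deviations of the 2 libraries went together across genes (Pearson r = 0.945, Spearman rho = 0.945, 45 genes that are not independent). The next highest of 91 pairs of ambulatory libraries had r = 0.826, that of AMB Ctrl replicates 2 and 3, both of letter c. In AMB mKO replicate 4 and AMB Ctrl replicate 7, Atp5e, for the epsilon subunit of ATP synthase, stood 1.54 and 1.25 above the median, and Atp5h, for its subunit d, 1.26 and 1.14 above. Atp5g2 had -1.72 and -1.08, Cox7a2 -1.53 and -0.76 and Cox7b -1.81 and -0.55. Mitochondrially encoded transcripts took 1.01% and 2.20% of the counts of these libraries, against 4.54% to 8.35% in the other 12. Without both libraries 3 transcripts fell in mKO mice and 10 in controls, a choice made after seeing the data, and without AMB mKO replicate 2 too, 18 and 25 fell. No share over all genes is given for these fits.

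**Figure D5:**
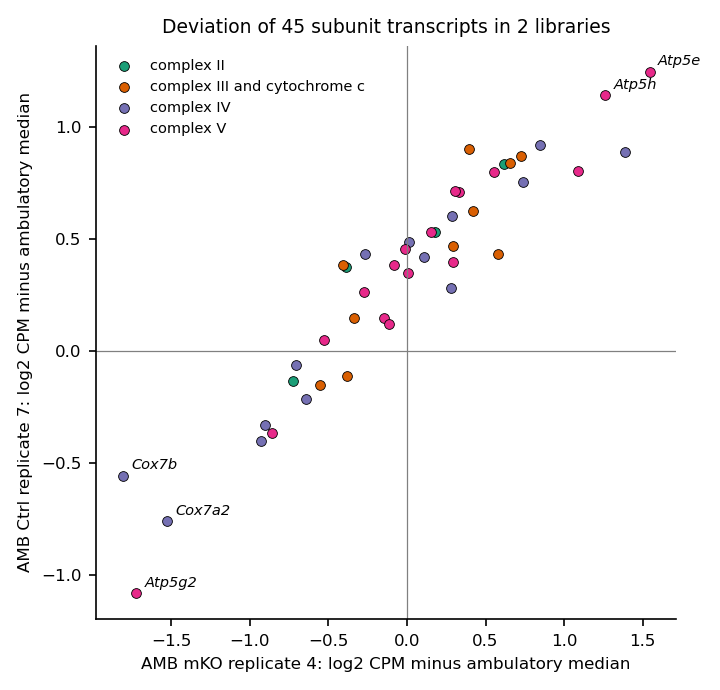
Each point is 1 of the 45 transcripts, coloured by complex, and the axes give its log2 CPM minus the median of the other 12 ambulatory libraries in AMB mKO replicate 4 (horizontal) and AMB Ctrl replicate 7 (vertical). The points lie along a rising line with r = 0.945, from Atp5g2, Cox7a2 and Cox7b at the low end to Atp5h and Atp5e at the high end.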

How the data were processed

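The authors deposited raw counts per gene, 1 column per library. The submitters' processing notes list STAR 2.7.9a, featureCounts 1.6.3, cutadapt 1.16, DESeq2 1.34.0 and build GRCm39. The sources used here do not state the annotation release, strand setting or handling of multimapping reads, so reads of overlapping or antisense genes cannot be told apart. Some protocol text in the labels describes other experiments and was not used. Groups came from the labels, and replicates were numbered in accession order.

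From the deposited counts, edgeR 4.0.16 in R 4.3.3 fitted all 30 libraries (filterByExpr, TMM, quasi-likelihood with group and sex), with Benjamini-Hochberg adjustment over 16932 genes. Values after ± are standard errors of log2 changes, taken as the size of the change over the square root of the test's F statistic. Contrasts were unloading in each genotype, genotype in each condition, their interaction and sex. P-values set each difference against a spread estimated over the libraries of all 4 groups, AMB mKO replicate 2 among them unless left out. Alternatives used limma 3.58.1, DESeq2 1.42.0, other filters and libraries left out. The test was checked on simulated counts with the same dispersion for every gene and no outlying library. That check does not cover a library such as AMB mKO replicate 2.

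The members and gene lists were chosen with earlier results of these data known. In the unloading comparisons, the members named were the 3 smallest p and the largest p per complex and the isoform pairs; where a comparison called none, the smallest p per complex; other members are named where a call or an overlap turned on them. Exon lengths, GC content and near-identical copies came from GENCODE M21 (GRCm38) and promoters from RefSeq (GRCm38.p6). Near-identical copies existed for 17 of the 45 genes, with counts of at most 6.14% of the gene's own (Uqcr10). No 2 libraries held identical counts.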

Additional observations from a re-analysis of the deposited data

Results flagged for a closer look

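Among 144 groups of values examined, 34 held a library far from the rest of its group by Dixon's criterion, which chance alone flags in about 1 of 20 groups. The cause was not tested for any of them.

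AMB mKO replicate 2 was the low extreme of its group for Uqcrq (69.1 CPM), Cox6a2 (16.8 CPM), Cox7a1 (6.79 CPM), Cox8b (20.2 CPM) and the summed complex IV transcripts (808 CPM), and the high extreme for Cox8a (112 CPM). Its log2 ratios were the low extreme for Cox6a2 to Cox6a1 (-1.64), Cox7a1 to Cox7a2 (-2.70), Cox8b to Cox8a (-2.47) and Atp5g1 to Atp5g3 (-1.84).

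AMB mKO replicate 4 was the high extreme for Atp5e (547 CPM) and Atp5h (588 CPM) and the low extreme for the log2 ratio of Atp5g2 to Atp5g3 (-3.35). AMB Ctrl replicate 7 was likewise extreme for Atp5e (446 CPM), Atp5h (541 CPM) and that ratio (-3.08). It was also the high extreme for Sdhb (687 CPM), Cyc1 (483 CPM), Uqcrfs1 (610 CPM), Cox4i1 (785 CPM) and Cox6a1 (26.3 CPM), and for the log2 ratios of Cox7a1 to Cox7a2 (1.86) and Cox8b to Cox8a (4.02).

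HU Ctrl replicate 1 was the high extreme for Sdhb (369 CPM), Cycs (126 CPM), Uqcrb (129 CPM), Uqcrq (205 CPM), Cox6b1 (298 CPM), Cox7a1 (144 CPM), Atp5h (282 CPM) and the summed complex IV transcripts (2984 CPM). HU mKO replicate 1 was the high extreme for Cox7a2 (144 CPM), Cox8b (317 CPM) and Atp5e (211 CPM).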

How the results depend on the processing

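The number of transcripts that fell with unloading depended on the libraries and the model. The median change over the 45 moved by less than 0.444 under every alternative. That value is the pooled SD of the library medians (log2 CPM of the 45 transcripts) within groups, and 0.26 without AMB mKO replicate 2. It is not the error of a group difference and is larger in size than the mKO unloading median of -0.33. Staying below it therefore says little about how stable the medians were. Of the 45, 2 fell in mKO mice and 16 in controls with all libraries. The counts were 18 and 28 without AMB mKO replicate 2, 3 and 19 without AMB mKO replicate 4, 15 and 30 without replicates 2 and 4, 13 and 30 without the 3 adipocyte-rich libraries, 15 and 33 with limma and library weights, 7 and 9 with sex left out, 20 and 31 with the title letter added and replicate 2 left out, and 0 and 32 with only the groups compared. DESeq2 gave 5 in mKO mice, and no low-count filter gave 9 in controls. Chosen after seeing the data, leaving out AMB Ctrl replicate 7 and AMB mKO replicate 4 gave 10 in controls, and leaving out replicate 2 too gave 18 and 25. Calls over all genes changed with the fit too. They were 10.1% in mKO mice and 11.1% in controls with all libraries, and 13.5% and 15.7% without AMB mKO replicate 2. For the other settings no share over all genes is given here, so their counts cannot be set against one. DESeq2 called 1 transcript by sex. Genotype and interaction calls stayed at 0 throughout.

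No unloading change in controls took another sign under any alternative. In the other comparisons some of the 45 transcripts did under at least 1 of them, 13 for unloading in mKO mice, 15 and 17 for genotype in ambulatory and unloaded mice, 30 for the interaction and 10 for sex; none was called in the fits concerned, and the cause was not tested. For genotype in ambulatory mice, 8 turned without replicates 2 and 4, 13 with limma and 13 without AMB Ctrl replicate 7 too, and Sdha, Uqcrc1, Atp5a1, Atp5b and Atp5g2 were among the 15. For the interaction 21 turned without replicate 2, 19 without replicates 2 and 4, 16 with limma and 14 with sex left out. Values follow for the transcripts named by rule. Cox6a1 in mKO mice turned furthest among the unloading changes, with -0.72 in all libraries. In mKO mice under unloading, without AMB mKO replicate 2, Cox6a2 was -0.17 and Uqcrb -0.061, against 0.16 and 0.072 without replicate 4. Without replicates 2 and 4, Atp5g2 was -0.15, Cox6a1 0.13, Cox6a2 -0.11, Cox7a2 -0.11 and Uqcrb -0.13, and without AMB Ctrl replicate 7 too, -0.12, 0.070, -0.11, -0.084 and -0.14. Without the adipocyte-rich libraries and with sex left out, Cox6a2 was -0.067 and -0.039. With limma, Atp5g2 was -0.0088, Cox7a2 -0.015 and Uqcrb -0.037. With the letter added and replicate 2 left out, Cox6a2 was -0.17, Cox7a2 -0.019 and Uqcrb -0.033. Atp5l and Cox7b were 0.0025 and 0.0021 with a mean of at least 1 CPM, 0.0093 and 0.037 with the letter, and 0.048 and 0.083 with only the groups compared. In ambulatory mice the genotype difference of Sdhd was 0.018 without replicates 2 and 4 and 0.020 with limma. The interaction of Sdhb was -0.086 without replicate 2, 0.26 without replicate 4, -0.050 with sex left out, -0.0048 with the letter and replicate 2 left out, and -0.18 without AMB Ctrl replicate 7 and AMB mKO replicates 2 and 4.

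No paired analysis was possible because replicate numbers follow accession order and the labels pair no mice. Raw counts were lowest for Cox4i2 (11 to 49) and Atp5s (62 to 192), and counting error was not separated from the spread between mice.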
